A study of Rattus norvegicus with 2 samples.

Results

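Genes that respond to glucocorticoids, together with the metallothioneins, were examined in esophageal tissue of rats given OSU-HDAC42, an inhibitor of histone deacetylases, and of rats given vehicle. The set held 9 genes, Nr3c1, Fkbp5, Fam107a, Tsc22d3, Sgk1, Klf9, Zbtb16, Mt1 and Mt2A. A probe set was taken when the platform annotation tied it to exactly 1 gene and the current or an older symbol of that gene was in the set. This gave 13 probe sets for 8 of the 9 genes, out of 14217 genes on the array, and Zbtb16 was not analysed here. The genes were chosen with their values in this comparison known, so every difference below is a description and carries no test.

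The rats were male Sprague-Dawley animals, an outbred laboratory strain, aged 5 to 6 weeks. By the labels, 7 doses of OSU-HDAC42 at 50 mg/kg body weight, in sum 350 mg/kg, or as many doses of vehicle were given by gavage. The esophagus was removed on day 15, which was 24 hours past the final gavage. Each group had 1 array, an Affymetrix rat genome array, and no source used here says whether RNA of 1 animal or of several was hybridised. The labels state neither the layers of the esophagus nor the hour of the day at which it was collected.

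Glucocorticoids are steroid hormones of the adrenal cortex that bind a receptor held in the cytoplasm by heat shock chaperones. The bound receptor moves to the nucleus, where it attaches to glucocorticoid response elements and raises the transcription of genes such as Tsc22d3, Fkbp5, Sgk1, Klf9 and Zbtb16. Metallothioneins are small cysteine-rich proteins that hold zinc and copper. Their genes answer to metals through metal response elements bound by the zinc sensor MTF1, and in many tissues to glucocorticoids as well.

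The promoters of the metallothionein genes are shown because both genes were lower with OSU-HDAC42, and that of Fam107a because this gene had the largest difference of the set. Each window runs from 250 bases before to 50 bases after the start site in RefSeq (build GRCr8), in the direction of transcription. In the first and the second the capitals mark cores of metal response elements, TGCACNC or TGCGCNC on either strand. In the third they mark a long form of the glucocorticoid response element, the palindromic core ACANNNTGT with a G standing 2 bases before it and a C 2 bases after it.
Mt1, chr19:10832926-10833225, minus strand: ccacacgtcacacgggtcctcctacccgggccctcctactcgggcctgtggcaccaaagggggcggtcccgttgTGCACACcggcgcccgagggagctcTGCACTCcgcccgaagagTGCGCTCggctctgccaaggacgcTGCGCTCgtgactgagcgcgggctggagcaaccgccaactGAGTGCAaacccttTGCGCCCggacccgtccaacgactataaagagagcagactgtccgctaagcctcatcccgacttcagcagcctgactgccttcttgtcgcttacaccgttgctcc
Mt2A, chr19:10838659-10838958, minus strand: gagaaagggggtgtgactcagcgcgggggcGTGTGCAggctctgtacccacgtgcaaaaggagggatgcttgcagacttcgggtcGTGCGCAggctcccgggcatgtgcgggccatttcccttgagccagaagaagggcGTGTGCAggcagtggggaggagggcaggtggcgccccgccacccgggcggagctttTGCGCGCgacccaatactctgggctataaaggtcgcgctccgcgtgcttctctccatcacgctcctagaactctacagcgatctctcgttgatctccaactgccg
Fam107a, chr15:19046331-19046630, plus strand: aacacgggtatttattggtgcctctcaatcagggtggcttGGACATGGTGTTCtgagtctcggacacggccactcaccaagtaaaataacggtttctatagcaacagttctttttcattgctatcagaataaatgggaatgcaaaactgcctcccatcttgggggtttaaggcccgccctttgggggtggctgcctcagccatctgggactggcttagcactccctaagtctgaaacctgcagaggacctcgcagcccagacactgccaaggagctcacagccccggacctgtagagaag

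The Mt1 and Mt2A start sites lie 5733 bases apart on chromosome 19. The Mt1 window held 6 cores of metal response elements, the first beginning 176 bases and the last 55 bases before the start site. The Mt2A window held 4, the first beginning 220 bases and the last likewise 55 bases before the start site. Of all 33469 windows of this length in the table, 24.2% held at least 1 such core, 0.439% held at least 4 and 0.0388% at least 6. Besides these, 1 of the Nr3c1 and 1 of the Tsc22d3 windows held a single core. The Fam107a match, ggacatggtgttc, began 210 bases before the start site, and 0.439% of all windows held a match to this long form on either strand. The core alone, which the long form contains, was in 6.86% of windows, and besides Fam107a only 1 of the 3 Tsc22d3 windows held it among the 13 windows of the 8 genes found in the table. No match was found for either form in the windows of Fkbp5, Klf9, Sgk1, Nr3c1, Mt1 and Mt2A, which says only that these letters are not in these windows. The E-box CACGTG, to which clock activators bind, was in the Mt2A window and in 6.42% of all windows.

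**Figure D1:**
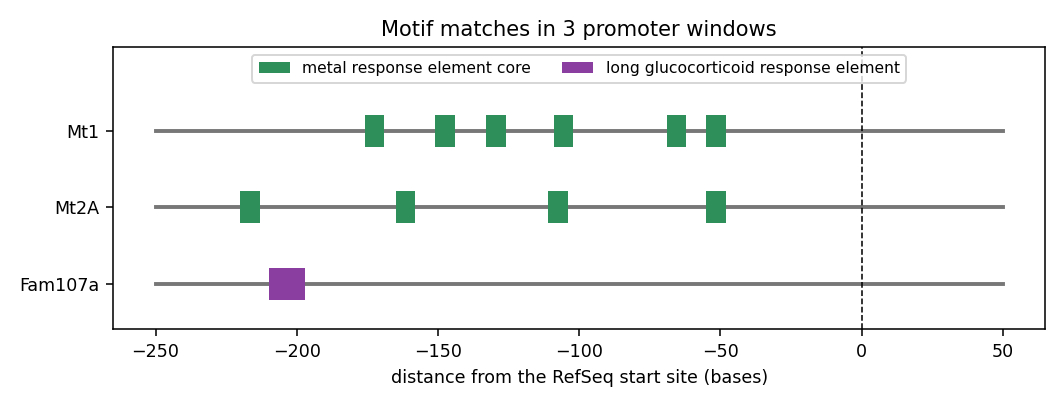
Motif matches in 3 RefSeq promoter windows, with the distance from the start site in bases on the horizontal axis and the start site as a dashed line. Mt1 carries 6 and Mt2A 4 cores of metal response elements (green), and Fam107a carries 1 long glucocorticoid response element (purple).

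In the OSU-HDAC42 sample, Fam107a, Mt2A and Mt1 were lower, Fkbp5 was higher, and Nr3c1, Klf9, Tsc22d3 and Sgk1 differed by less than 1.5-fold. Values are deposited intensities on a linear scale. A difference is the log2 intensity with OSU-HDAC42 minus that with vehicle, after intensities under 16 had been raised to 16. Each gene was represented by its brightest probe set. A gene counted as above the expression floor when either array reached an intensity of 49.1, the median over probe sets, and all 8 genes did so on that probe set, whereas 5 of the 13 probe sets did not. With 1 array per group the differences have no error between animals, and the number of arrays limits their precision. As a measure of probe noise alone, the differences of 3643 pairs of probe sets that measured the same gene disagreed with an SD of 0.41.

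Of the 8 genes, 1 was at least 2-fold lower and 0 were at least 2-fold higher, against shares of 3.17% and 1.88% among the 9560 genes above the floor. At 1.5-fold, 3 were lower and 1 was higher, against 10.9% and 7.58%. The median difference of the 8 genes was -0.16 and that of all genes above the floor -0.027. Because the genes were picked from this same comparison, nothing is read from these shares.

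**Figure D2:**
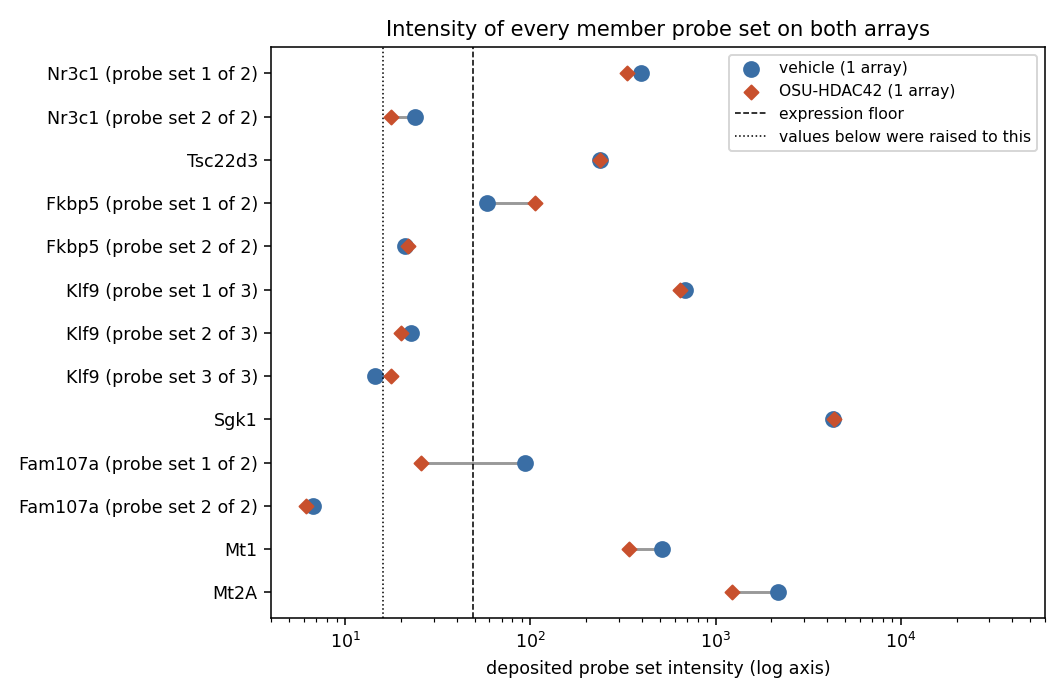
Deposited intensity (log axis) of all 13 probe sets, with the vehicle array as blue circles and the OSU-HDAC42 array as orange diamonds. The widest gap is that of Fam107a, at 93.1 with vehicle and 25.5 with OSU-HDAC42, and the symbols of Tsc22d3 coincide at 236.

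Nr3c1, which encodes the glucocorticoid receptor, had an intensity of 334 with OSU-HDAC42 and 396 with vehicle, a difference of -0.25. Its other probe set, below the floor, stood at 17.8 and 23.7 and differed by -0.42. Both probe sets were lower in the OSU-HDAC42 sample, by amounts near or under the spread between probe sets, and 28.5% of all genes at that floor had a difference at least as low as the brighter one.

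The genes that act back on the receptor or carry its anti-inflammatory action differed from each other. Fkbp5 encodes a co-chaperone that lowers the hormone affinity of the receptor and is itself induced by the hormone. It stood at 107 with OSU-HDAC42 and 58.3 with vehicle, 1.83-fold higher (difference 0.87), and 284 of the 9560 genes, 2.97%, were at least as high in their difference. Genes with a mean intensity from 49.1 to 100, where Fkbp5 lies, had differences with an SD of 0.60. The second Fkbp5 probe set stood at 22.0 and 21.1, below the floor, and differed by 0.059. The higher Fkbp5 value therefore rests on 1 of its probe sets. Tsc22d3 encodes GILZ, a leucine zipper protein through which glucocorticoids dampen inflammation. Its deposited intensity was 236 on both arrays, equal to the last deposited digit. Such equal pairs were found for 963 of 31042 non-control probe sets (3.1%), and 47 of the genes above the floor had one.

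Klf9, a Krüppel-like transcription factor induced by glucocorticoids and by thyroid hormone, stood at 646 with OSU-HDAC42 and 681 with vehicle, a difference of -0.077. Its other probe sets were below the floor, at 19.96 and 22.7 on one and at 17.6 and 14.6 on the other, and went in opposite directions. Sgk1, a kinase that raises sodium uptake through the epithelial sodium channel, stood at 4352 and 4300, a difference of 0.017. Genes with a mean intensity of 3000 or more, as Sgk1, had differences with an SD of 0.19 on these arrays, against 0.43 for those from 300 to 1000, where Klf9 lies. Both genes differed by less than those SDs.

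Fam107a, which encodes a regulator of actin also known as DRR1 and is induced by glucocorticoids and stress in the brain, showed the largest difference. It stood at 25.5 with OSU-HDAC42 and 93.1 with vehicle, 3.65-fold lower (difference -1.87), and 21 of the 9560 genes (0.22%) were at least as low, itself included. It reached the floor only on the vehicle array, where it was high. Its mean intensity was 48.8, and genes next above, from 49.1 to 100, had differences with an SD of 0.60. The Fam107a window is the one shown above with the long glucocorticoid response element. The second Fam107a probe set stood at 6.17 and 6.69, both under 16 and too dim for a difference to be read. With the median of both probe sets taken, the difference was -0.93 and the gene no longer counted as 2-fold lower. The related gene Fam107b stood at 1171 and 1390 (difference -0.25).

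The metallothioneins, whose promoters hold the metal response element cores shown above, were lower with OSU-HDAC42. Mt2A stood at 1224 with OSU-HDAC42 and 2173 with vehicle, 1.78-fold lower (difference -0.83), and 5.31% of the 9560 genes had a difference at least as low. Mt1 stood at 341 and 514, 1.51-fold lower (difference -0.59), and 10.6% of the 9560 genes had a difference at least as low. A further probe set that the annotation gives to Mt1, Mt1f and Ttr together, and that was left out of the gene values, stood at 244 and 331 (difference -0.44). The other metallothioneins, taken from the zinc list below, lay on the same side. Mt3, the form first known from brain, stood at 107 and 184 (difference -0.79). Mt4, the form of stratified squamous epithelium, stood at 8310 and 10180 (difference -0.29). Genes in the intensity ranges of Mt1, Mt2A, Mt3 and Mt4 had differences with SDs of 0.43, 0.33, 0.53 and 0.19. All 4 genes were also lower under each of the 3 other scalings, the alternatives that could move all of them. The median intensities of all probe sets were already close, at 48.4 with OSU-HDAC42 and 49.1 with vehicle. These scalings could therefore hardly change the side of a gene, and nothing is read from that result. Over every alternative the differences were -0.60 to -0.52 for Mt1, -0.86 to -0.81 for Mt2A, -0.79 to -0.76 for Mt3 and -0.29 to -0.25 for Mt4. Metallothionein transcripts are closely alike in sequence, and how far their probe sets read each other's transcripts was not tested.

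**Figure D3:**
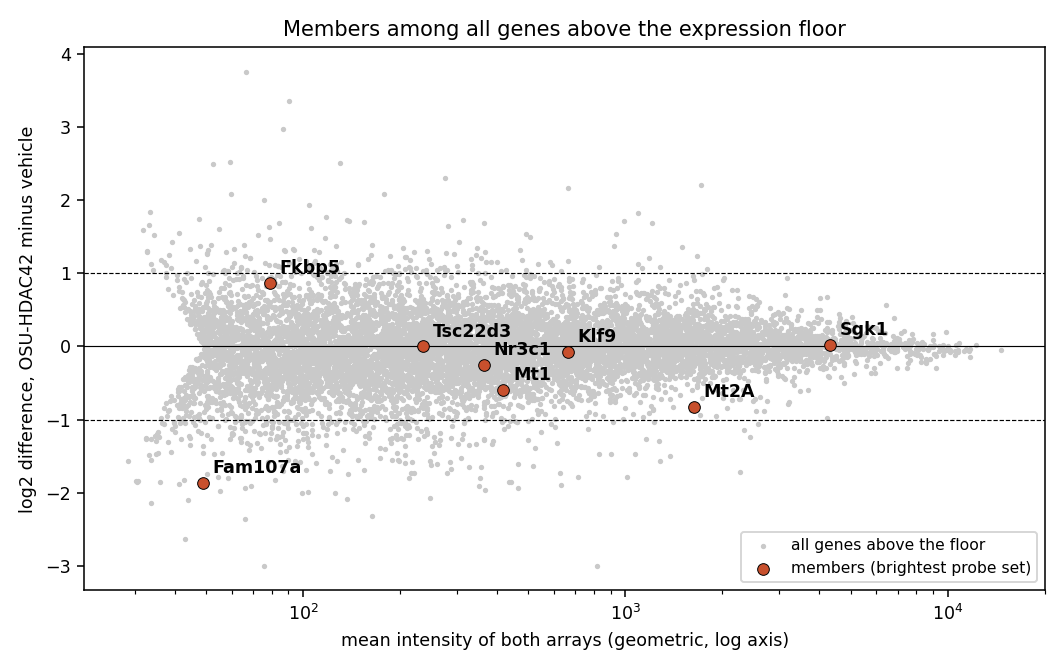
Log2 difference (OSU-HDAC42 minus vehicle) against the mean intensity of both arrays (log axis) for all 9560 genes above the floor (grey), with the 8 genes in orange and dashed lines at 2-fold. Fam107a lies below the lower line at -1.87, Fkbp5 (0.87) just under the upper line, and Sgk1, Klf9 and Tsc22d3 lie near 0.

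On their brightest probe sets, measured partners of the receptor above the floor differed by less than 1.5-fold. The list of its chaperones, coregulators and steroid enzymes had 20 of 23 genes measured and 18 above the floor, with 9 higher, 9 lower and 0 past 1.5-fold in either direction, a size that 18.5% of all genes reached. Its median over measured genes was 0.019. The coregulator Crebbp differed by -0.26 on its brightest probe set. Another Crebbp probe set above the floor was past 1.5-fold, at 526 with OSU-HDAC42 and 876 with vehicle (difference -0.74). Hsd11b1 and Hsd11b2, which make and break down active hormone, stood at 495 against 444 and at 317 against 297. Fkbp4, the co-chaperone that competes with the product of Fkbp5 for the receptor, stood at 372 with OSU-HDAC42 and 483 with vehicle. The Fkbp4 difference of -0.38 rests on 1 probe set and was under the SD of 0.41 by which pairs of probe sets disagreed. Whether it exceeds noise was not tested. In the FKBP family without Fkbp5 but with Fkbp4, 12 of 13 measured genes reached the floor, and 6 of them were higher and 6 lower. Fkbp11, a form of the secretory pathway, differed by -1.29 and Fkbp15 by -0.70, while Fkbpl and Fkbp9 differed by 0.87 and 0.73.

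Other genes known as glucocorticoid-induced did not differ in a common direction. Of 40 listed genes 39 were measured and 26 reached the floor, 17 higher and 9 lower, with 0 past 2-fold. At 1.5-fold, 3 were higher, namely Crispld2 (923 against 484, difference 0.93), the mTOR inhibitor Ddit4 (551 against 314, 0.81) and the hemoglobin scavenger receptor Cd163 (207 against 123, 0.76). In the other direction 2 passed 1.5-fold, the transcription factor Klf15 (52.7 against 96.4, -0.87) and the clock repressor Per1 (91.6 against 138, -0.59). The shares of all genes at these sizes were 7.58% higher and 10.9% lower, and the counts of 3 and 2 out of 26 are near them. The phosphatase Dusp1, a classical target, stood at 2045 against 2446 (-0.26), and Pdk4 at 320 against 357 (-0.16). The median was 0 over the measured genes, 7 of which were under 16 on both arrays, and 0.13 over those above the floor.

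Relatives of the other genes were mostly close on both arrays. Of the Krüppel-like factors besides Klf9, 12 of 13 measured reached the floor, and 8 were higher and 4 lower. On their brightest probe sets, Klf15 and Klf1 (-0.68) were at least 1.5-fold lower and Klf16 (0.65) at least 1.5-fold higher. The shares of all genes were 10.9% and 7.58%. The other Klf15 probe sets, below the floor, differed by -0.20 and 0.22. Klf3 differed by 0.13 on its brightest probe set. Its other probe sets, also above the floor, stood at 981 against 558 (0.82) and at 983 against 673 (0.55), with OSU-HDAC42 first. Tsc22d1, Tsc22d2 and Tsc22d4 differed by 0.086, -0.036 and 0. Sgk3 differed by 0.33, and Sgk2, just below the floor, stood at 48.3 with OSU-HDAC42 and 17.4 with vehicle. Among the sodium channel and SGK1 substrate genes, all 11 measured reached the floor, and 6 were higher and 5 lower. The channel subunit Scnn1b differed by -0.77.

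The list of zinc handling showed no common direction. Including Mt3 and Mt4, 24 of 27 listed genes were measured and 18 were above the floor, 8 higher and 10 lower, with a median of -0.0077 over the measured genes. The zinc sensor Mtf1 stood at 429 and 434. Its other probe sets, also above the floor, differed by 0.28 and 0.42. Slc39a14, which brings zinc into the cell, differed by 0.60, and its relative Slc39a10 by -0.50. Slc30a1, an exporter that is itself a target of the zinc sensor, stood at 8.19 and 8.41, too dim on either array for a difference to be read.

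Markers of the tissue also differed between the samples, and their part in the values above was not tested. Values are given with OSU-HDAC42 against vehicle. Basal keratinocyte markers summed to an intensity of 33321 against 34533, with 8 of 9 lower and a median of only -0.081. On the brightest probe sets, only the integrin Itgb4 was past 1.5-fold, at 171 against 416. Of all genes, 10.9% were at least 1.5-fold lower. Dst differed by -0.083 on its brightest probe set, but its other probe sets above the floor were past 1.5-fold. They stood at 1204 against 2267 (difference -0.91) and at 50.1 against 99.0 (-0.98). Suprabasal markers summed to 80813 against 83379, with 5 of 14 higher and 9 lower. These sums are carried by a few very bright genes, and single suprabasal markers differed far more, with Sprr1b at 3688 against 799, Krt10 at 345 against 168, Ivl at 293 against 194 and Evpl at 962 against 1552. Skeletal muscle markers summed to 23432 against 44094, 21 of 24 above the floor were lower, and the median over 26 was -1.02. Actn3, Ttn and Mybpc1 differed by -2.09, -1.94 and -1.85, and Tnnt1 and Des by 0.62 and 0.60. Smooth muscle markers summed to 17258 against 11643, with 10 of 10 higher, led by Synpo2 (1.499), Tagln (1.24) and Actg2 (0.68). The other Synpo2 probe sets, also above the floor, disagreed in direction, with differences of 1.45, 0.070 and -0.44.

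Fibroblast markers summed to 21501 against 17485, with 9 of 10 higher, led by Thy1 (1.09), Pdgfra (0.94) and Pdgfrb (0.92). Macrophage markers summed to 1990 against 1699, with 7 of 9 above the floor higher, led by Mrc1 (1.00) and Cd163 (0.76). Endothelial markers summed to 3183 against 3151, with 6 of 9 lower, led by Vwf (-0.95), Egfl7 (-0.79) and Emcn (-0.73). The 3 higher were Pecam1 (1393 against 1119, 0.32), Kdr (657 against 520, 0.34) and Esam (129 against 106, 0.27). Pecam1 and Kdr are the brightest of these markers and carry much of the sum. Mast cell markers summed to 259 against 138. Of these only Cpa3 was above the floor, at 131 against 47.5, with Ms4a2 at 32.6 against 16.2 and Tpsb2 at 25.6 against 15.1 below it and Kit under 16 on both arrays. T cell markers summed to 264 against 192, with only Cd8a above the floor, at 153 against 84.5, and Cd3d under 16 on both arrays. Adipocyte markers summed to 353 against 439, with Fabp4 at 61.2 against 99.4 and Lpl at 231 against 275 above the floor and Adipoq under 16 on both arrays. Schwann cell and neuron markers summed to 183 on both arrays, with only Tubb3 above the floor, at 55.2 against 40.3, and Sox10 under 16 on both arrays. In whole tissue, fewer cells of a type and less RNA per cell cannot be told apart.

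Clock genes, which share Per1 with the glucocorticoid-induced list, differed as well. Of 17 measured, 7 were higher and 10 lower, with the activator Bmal1 at 143 against 24.7 and its output Dbp at 186 against 725. Cry1 differed by 0.71, Per2 by -1.85 and Bhlhe41 by -1.52. Another Per2 probe set above the floor differed by less, at 55.4 against 72.7 (-0.39). Blood glucocorticoids follow a daily rhythm, as does Per1. The part of collection time in the values was not tested, since the labels give no hour.

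**Figure D4:**
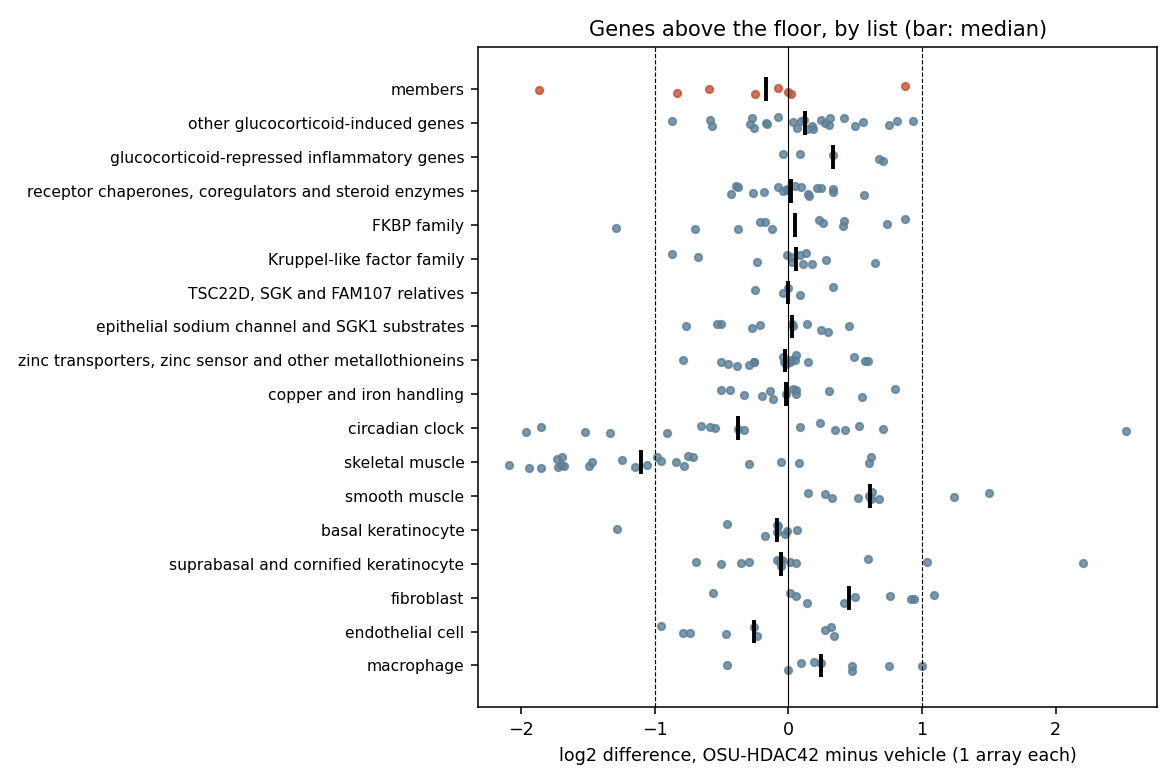
Log2 difference (OSU-HDAC42 minus vehicle) of each gene above the floor, by list, for lists with at least 4 such genes, with black bars at the medians of those genes and dashed lines at 2-fold. The set described here (orange) runs from -1.87 to 0.87, the lists of receptor partners and zinc genes lie around 0, and skeletal muscle lies lowest.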

How the data were processed

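Expression was measured on 2 arrays, 1 per group. The deposited intensities are 1 linear value per probe set and array, a unit read from the values. Per the submitters' processing notes, GCOS and RMA were used, while role, version and scaling are not given in the sources used here. From these values, log2 was taken after raising intensities under 16 to 16, which touched 28.4% of the OSU-HDAC42 and 29.2% of the vehicle probe sets. The 57 Affymetrix control probe sets were left out. Genes came from the platform annotation, with symbols updated through RefSeq (GRCr8), and 436 probe sets with several genes and 9780 with none were not used for gene values. The gene set, the lists and the rules were chosen with earlier results of these data known. Of each list, up to 3 genes in either direction past 1.5-fold were named, and others in the text were chosen after their values were seen. Scaling, probe set choice, floor and threshold were varied. Python 3.11.15, pandas 2.3.3, statsmodels 0.14.6 and matplotlib 3.10.9 were used, and the counting was tested on simulated data. Probes were not tied to the promoter windows.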

Additional observations from a re-analysis of the deposited data

How the results depend on the processing

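No paired analysis was possible because there was only 1 array of either treatment. Of the alternatives run, 277 values stayed close to the reported one, within the SD of 0.41 between probe sets or, for counts, within 1.5 times, and 11 did not. Many of the 277 could hardly move by construction, so nothing is read from that count. The width also hides shifts in lists of dim genes. With no value raised, the median of the glucocorticoid-repressed genes went from 0 to 0.34 and that of mast cells from 0.31 to 0.64. With values raised to 32, the mast cell median was 0. Settings of raised values and probe set choice cannot move a bright gene with 1 probe set, such as Mt2A, Sgk1 or Tsc22d3. The count of 1 gene at least 2-fold lower became 0 with the median of all probe sets of a gene, with the floor at the 75th percentile and with the floor on the mean of both arrays, since in each case Fam107a was no longer counted. At 1.5-fold by construction 3 were lower and 1 was higher. The Fam107a difference was -0.93 as the median of its probe sets, also with probe sets of several genes added. Fkbp5 ranged from 0.46 to 0.90, Nr3c1 from -0.33 to -0.23, Klf9 from -0.099 to -0.055, Sgk1 from 0 to 0.039 and Tsc22d3 from 0 to 0.028. With only members above the floor, of which there were 1 or 2, the list medians were 0.85 for T cells, 1.46 for mast cells, -0.47 for adipocytes and 0.46 for Schwann cells and neurons. Counting motifs only before the start site left 3 of 4 genes with a metal response element core and changed no other motif count. Low signal limits the second probe sets of Fam107a, Fkbp5, Klf9 and Nr3c1, all below the floor.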

Other observations

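The list of copper and iron handling had 14 of 16 listed members measured and 13 above the floor, 6 higher and 7 lower, with a median of -0.066. The copper importer Slc31a1 stood at 2484 with OSU-HDAC42 and 1427 with vehicle (difference 0.80), and the iron exporter Slc40a1 at 210 and 143 (0.55). The iron importer Slc11a2 stood at 459 and 649 (-0.50), and the copper chaperone of the cytochrome oxidase, Cox17, at 671 and 909 (-0.44). Another Slc11a2 probe set above the floor went the other way, at 188 and 157 (0.25).

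Inflammatory genes known to be held down by glucocorticoids were mostly dim. Of 18 measured, 9 were under 16 on both arrays and 5 were above the floor, of which 4 were higher with OSU-HDAC42 and 1 lower. Il1a stood at 757 and 463 (difference 0.71), the adhesion molecules Vcam1 at 117 and 73.1 (0.68) and Icam1 at 142 and 112 (0.34), and Il33 at 1302 and 1222 (0.091). The lower gene was Tslp, at 204 and 210 (-0.042). At 1.5-fold 2 of the 5 were higher, a size that 7.58% of all genes reached, and nothing is read from so few. Below the floor, the chemokine Ccl2 stood at 33.3 and 10.7 and Il1b at 17.8 and 11.7. In the other direction, Csf2 stood at 16.4 and 18.9 and Nos2 at 12.4 and 17.7.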
